A study of Mus musculus with 24 samples.

Results

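The 6 genes described here, Eed, Ezh1, Ezh2, Suz12, Rbbp4 and Rbbp7, encode the core of Polycomb repressive complex 2 (PRC2). They were found by symbol among the 23284 rows of the deposited count table, and 6 of 6 were present and passed the filter on low counts. RNA with poly(A) tails was sequenced from C57BL/6 mouse embryonic stem cells, grown on embryonic fibroblast feeders with serum and LIF, and from embryoid bodies (EB) made of them. The f/f group is the floxed Eed line without tamoxifen. The KO group is the line deleted for Eed with 800 nM 4-hydroxytamoxifen, and the KO+WT and KO+N-KR groups are tamoxifen-treated knockout cells given back wild-type EED or a form labelled N-KR, which the labels do not spell out. Each of the 4 genotypes was sampled in the state labelled 3i, at EB day 1 and at EB day 2, with 2 libraries per group. No label names more than 1 line per genotype, so each genotype is taken as 1 line. The f/f cells were the only ones left untreated, so a comparison with them carries tamoxifen, line history and genotype together, and these cannot be told apart. Among the treated lines, genotype and line history likewise cannot be told apart.

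PRC2 places methyl groups on lysine 27 of histone H3, the mark of Polycomb-silenced genes. EZH2 or its paralog EZH1 is the catalytic subunit, SUZ12 is the scaffold, EED binds the methylated histone and stimulates the enzyme, and RBBP4 or RBBP7 is a histone-binding protein shared with other chromatin complexes. In embryonic stem cells the complex keeps developmental regulators silent, and cells without EED survive but lose the mark.

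The 2 libraries of a group differed by 1.10 to 1.18 times the variance of binomial sampling, against 3.48 to 15.5 times between genotypes, and no label gives them separate cultures. Their counts were added up as 1 sample, and the resulting 12 samples held 18017598 to 25160294 counts each. A genotype in 1 state has no replicate. The p-values below therefore tell how regularly a genotype difference came back in the 3 states, or a state difference in the 4 lines. Where samples are said not to overlap, no share of all genes that separate likewise is given. Such statements describe the gene alone. Levels are given in CPM, the counts scaled to equal library size with TMM factors, and log2 fold changes are given ± SE from edgeR's quasi-likelihood test with Benjamini-Hochberg adjustment over 14970 genes and a threshold of 0.05. The 8 stem cell markers, among them Pou5f1 (764 to 1442 CPM) and Sox2 (493 to 856 CPM), were present in every sample. The 16 feeder markers summed to 2558 to 3737 CPM at 3i, 974 to 1128 CPM at day 1 and 978 to 1034 CPM at day 2. Lum was at or near 0 (at most 0.14 CPM), whereas Fn1, the most abundant of them, ran from 875 to 3094 CPM.

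Promoter sequences are shown for the paralog pairs on which the results turn. Rbbp4 and Rbbp7 are shown because both fell in KO and rose in KO+N-KR, and Ezh1 and Ezh2 because their levels took different courses between EB days. The sequences are from RefSeq (GRCm38.p6), 5′ to 3′ on the gene's own strand. Those of Rbbp4, Rbbp7 and Ezh1 are 250 bases long and end 1 base before the annotated start. For Ezh2 only the stretches around the motif are shown, because its window lies within the span of an annotated transcript (GENCODE) that starts further upstream, and positions refer to the start that the RefSeq table gives. Capitals mark the motif CCAAT or its reverse complement ATTGG. All 6 genes matched the RefSeq promoter table.
Rbbp4, chr4:129335371-129335620, minus strand: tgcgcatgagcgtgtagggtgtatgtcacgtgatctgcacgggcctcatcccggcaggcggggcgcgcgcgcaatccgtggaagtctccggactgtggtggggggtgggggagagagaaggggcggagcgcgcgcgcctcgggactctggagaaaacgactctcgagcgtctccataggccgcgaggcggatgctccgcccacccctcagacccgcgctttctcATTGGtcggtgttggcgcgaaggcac
Rbbp7, chrX:162760122-162760371, plus strand: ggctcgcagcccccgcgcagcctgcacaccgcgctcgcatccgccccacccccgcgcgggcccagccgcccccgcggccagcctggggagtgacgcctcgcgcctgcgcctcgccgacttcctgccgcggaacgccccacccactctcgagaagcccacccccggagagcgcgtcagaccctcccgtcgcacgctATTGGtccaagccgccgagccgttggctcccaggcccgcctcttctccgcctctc
Ezh1, chr11:101226464-101226713, minus strand: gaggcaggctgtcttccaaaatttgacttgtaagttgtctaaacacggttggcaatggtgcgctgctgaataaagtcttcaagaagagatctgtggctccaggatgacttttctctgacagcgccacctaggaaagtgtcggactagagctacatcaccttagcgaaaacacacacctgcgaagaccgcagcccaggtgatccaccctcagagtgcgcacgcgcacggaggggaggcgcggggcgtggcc
Ezh2 site 1, chr6:47595106-47595130, minus strand: cggccctctgATTGGacgggcgccc
Ezh2 site 2, chr6:47595080-47595104, minus strand: ctcgcatcctCCAATcggagaggcg
Ezh2 site 3, chr6:47595031-47595051, minus strand: agcgatggcgATTGGgttgct

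The CCAAT letters, searched on both strands, occurred in 33.8% of 32851 promoter windows of 250 bases. Ezh2 held 3 matches, at 90, 64 and 11 bases before the start used here, which is not the most upstream one annotated. Rbbp4 held 1 match at 26 bases, Rbbp7 held 1 at 55 bases and Suz12 held 1 at 61 bases. No match lay in the windows of Ezh1 and Eed. Sites of E2F, the factor family that drives genes of DNA replication, were searched as TTTGGCGC, TTTCCCGC, TTTCGCGC and TTTGCCGC on both strands. They occurred in 1.86% of windows and, of the 6 genes, in Suz12 alone, as TTTCCCGC at 219 bases before the start. These are matches of letters and not shown to be bound.

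The 6 genes were expressed in every sample. Per kilobase of mRNA, the catalytic paralog Ezh1 was the lowest, with a median of 11.9 CPM per kb over the 12 samples, followed by Suz12 (77.8), Ezh2 (84.2) and Eed (84.3). Rbbp4 (114 CPM per kb) and Rbbp7 (154 CPM per kb) were the highest. Per kilobase of coding length the order of these 2 was reversed (392 for Rbbp4 and 272 for Rbbp7). Ranges overlapped for Suz12 (64.2 to 104), Ezh2 (75.4 to 94.4) and Eed (49.5 to 187), and their order changed when coding length was used, whereas Ezh1 remained lowest (22.2 CPM per coding kb). Ezh1 ranged from 7.44 to 17.9 CPM per kb, below every sample of the other genes. In the scale of plain CPM, Eed varied most over the samples, from 102 to 387, or 3.78-fold, and Ezh2 least, from 210 to 263.

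**Figure D1:**
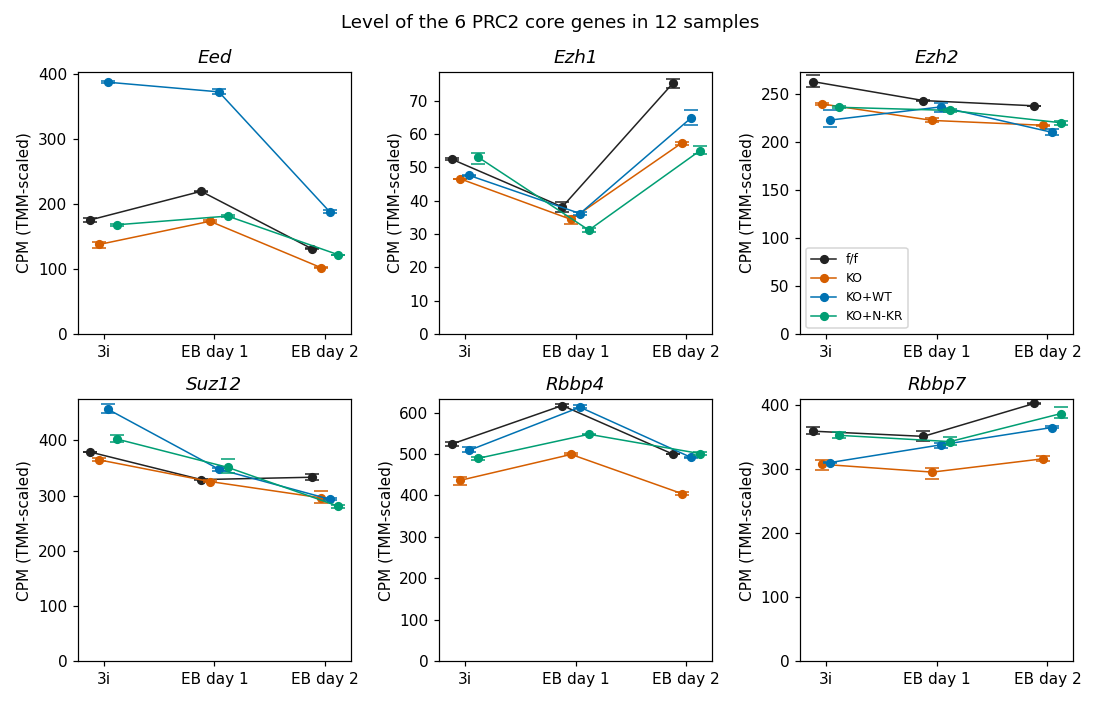
Level of each gene in CPM (TMM-scaled, axes from 0) in the 3 states, with a dot for the summed sample of each genotype and short bars for its 2 libraries. Eed in KO+WT stands above the other genotypes in each state. Rbbp4 and Rbbp7 are lowest in KO in each state, Rbbp7 at 3i within counting error of KO+WT. Ezh1 dips at EB day 1 and peaks at EB day 2 in every genotype, in KO+N-KR within counting error of 3i.

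Eed encodes the subunit that the study deleted. Its level in f/f was 175 CPM at 3i, 219 CPM at day 1 and 131 CPM at day 2. In KO it was 138, 173 and 102 CPM in the same order of states. The knockout thus kept most of its Eed RNA, and each KO sample lay below the f/f sample of its state. The fall of Eed in KO, taken over the 3 states, was 0.35 ± 0.10 on the log2 scale (adjusted p = 0.0463). The labels do not say which exons were deleted, and a gene-level count that includes the remaining exons does not check the deletion. The call was lost with library totals in place of TMM (adjusted p = 0.0725) and without any 1 of the f/f or KO samples or without the KO+WT day 1, KO+N-KR 3i or KO+N-KR day 1 sample (adjusted p from 0.0508 to 0.17).

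In KO+WT, the level of Eed was 387 CPM at 3i, 372 CPM at day 1 and 188 CPM at day 2, and these samples did not overlap with those of KO. Eed rose by 1.17 ± 0.10 (log2, adjusted p = 1.75e-05) against KO and by 0.82 ± 0.10 (adjusted p = 0.000218) against f/f. The ratio to KO was 2.81-fold at 3i, 2.15-fold at day 1 and 1.84-fold at day 2. At least 2-fold was reached at 3i, where 0.431% of 10913 genes were that much higher, and at day 1, where 0.657% were. Markers of other cells moved in these comparisons too. Of the 14 feeder markers tested, 6 rose in KO+WT against KO, beside 7.11% of all genes, and 8 rose against f/f, beside 3.71%. Of 7 endoderm markers, 5 fell against KO, beside 9.06% of all genes (summed endoderm markers were at 17.7 to 104 CPM over the samples). The part of these markers in the Eed values was not tested. Whether reads of the added EED sequence are counted in the Eed row cannot be told from these files.

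In KO+N-KR, the level of Eed was 168, 181 and 122 CPM at 3i, day 1 and day 2. These samples did not overlap with those of KO+WT, and Eed fell by 0.97 ± 0.10 (log2, adjusted p = 0.000287) between these lines. Among all genes tested, 0.267% fell in that comparison and 0.294% rose, and Eed was the single core gene called. In that comparison 3 of 7 endoderm markers rose (median log2 fold change 1.29) and 0 of 14 feeder markers were called (-0.45), and their part in the Eed difference was not tested. The fold was past 2 at 3i (log2 ratio -1.20, where 0.359% of genes were at least 2-fold lower) and at day 1 (log2 ratio -1.04, where 0.161% were), and smaller at day 2 (log2 ratio -0.63). Against KO, Eed in KO+N-KR was higher in 3 of 3 states, at day 1 within counting error. The log2 difference of 0.20 ± 0.10 did not pass (adjusted p = 0.196). Against f/f, Eed in KO+N-KR was lower in 3 of 3 states, at 3i within counting error. That log2 difference was -0.15 ± 0.10 (adjusted p = 0.399). The 3 calls on Eed that involve KO+WT were kept under every alternative run.

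**Figure D2:**
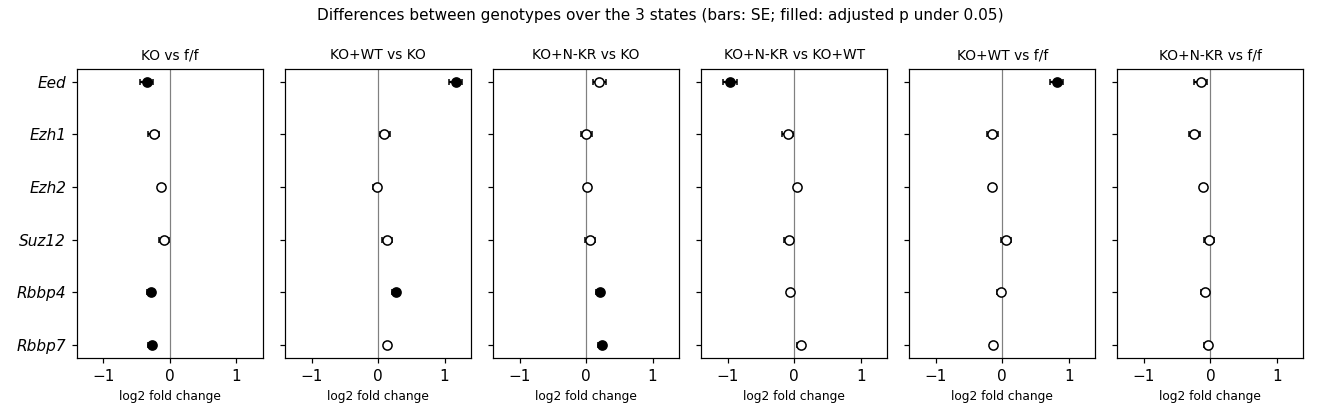
Log2 fold change (horizontal axis, bars are SE) of the 6 genes in each comparison of genotypes over the 3 states, from 12 samples; filled dots have an adjusted p under 0.05. Eed moves most wherever KO+WT is compared, from -0.97 to 1.17, and the other genes stay between -0.29 and 0.27.

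RBBP4 and RBBP7 are WD40 proteins that hold histones, and they also serve in the NuRD and SIN3 deacetylase complexes and in chromatin assembly. In f/f, Rbbp4 was at 524 CPM at 3i, 617 CPM at day 1 and 500 CPM at day 2. Its KO levels were 437, 499 and 405 CPM. The highest KO sample (day 1) and the lowest f/f sample (day 2) were within counting error of each other, and within a state KO was the lower each time. Rbbp4 fell in KO by 0.29 ± 0.05 (log2, adjusted p = 0.00911). In KO+WT it was at 509, 613 and 492 CPM, above KO in each state, and it rose against KO by 0.27 ± 0.05 (adjusted p = 0.00347). In KO+N-KR it was at 489, 548 and 501 CPM, and it rose against KO by 0.20 ± 0.05 (adjusted p = 0.0155).

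In f/f, Rbbp7 was at 359 CPM at 3i, 351 CPM at day 1 and 402 CPM at day 2. Its KO levels, 307, 295 and 316 CPM, did not overlap with these. It fell in KO by 0.27 ± 0.05 (log2, adjusted p = 0.0129). In KO+N-KR it was at 352, 342 and 386 CPM, again with no overlap with KO, and it rose against KO by 0.23 ± 0.05 (adjusted p = 0.00907). In KO+WT it was at 310, 337 and 364 CPM, higher than KO in 3 of 3 states, and the log2 difference of 0.14 ± 0.05 did not pass (adjusted p = 0.086). The 3i sample of KO+WT was the one nearest to KO (log2 ratio 0.01). The falls of both genes in KO were lost without the f/f day 1 sample (adjusted p = 0.0622 for Rbbp4 and 0.0593 for Rbbp7), and that of Rbbp7 also without the KO day 2 sample (0.0534). The rises in KO+N-KR were lost when KO and KO+N-KR were fitted alone (0.102 for Rbbp4 and 0.0617 for Rbbp7), and that of Rbbp4 also without the KO day 1, KO day 2 or KO+N-KR day 2 sample (0.0547 to 0.0727). Without all day 1 samples, these falls and rises and the rise of Rbbp4 in KO+WT were lost (adjusted p from 0.127 to 0.212).

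In KO against f/f, therefore, 0 of the 6 genes rose and 3 fell, beside 4.64% and 4.58% of all genes tested. Those shares rest on 1380 calls, and the number of calls was 89 without the f/f day 1 sample, 283 without KO day 2, 361 without f/f 3i and 377 without KO day 1. With library totals in place of TMM, all-gene calls shifted from 694 higher and 686 lower to 1083 higher and 327 lower. Rbbp4 and Rbbp7 passed under both. The median log2 fold change of the 6 genes was -0.26, beside 0.00 over all genes tested. In the same comparison 2 of 7 endoderm markers rose (median log2 fold change 0.42), 1 of 5 neuron markers rose (0.38), 2 of 8 stem cell markers fell (-0.09) and 0 of 14 feeder markers were called (0.26). Their part in the core genes' values was not tested. Each of the 6 was lower in KO in 3 of 3 states, Suz12 at day 1 within counting error (log2 ratio -0.02). The share of all genes that were lower likewise is not given, so this describes the 6 genes alone. Ezh1 (-0.24 ± 0.08, adjusted p = 0.0864), Ezh2 (-0.13 ± 0.05, adjusted p = 0.125) and Suz12 (-0.08 ± 0.08, adjusted p = 0.507) did not pass. In KO+WT against KO, 2 rose and 0 fell, beside 7.11% and 9.06%, and in KO+N-KR against KO 2 rose and 0 fell, beside 6.67% and 9.00%. In KO+WT against f/f 1 rose (Eed) and 0 fell, beside 3.71% and 5.43%. In KO+N-KR against f/f edgeR called 0 of 6, beside 3.71% rising and 5.41% falling. DESeq2 also called 0, and Ezh1 alone had an unadjusted p under 0.05 (-0.24 ± 0.09, adjusted p = 0.0974). Ezh1 passed there without the KO+N-KR 3i sample (adjusted p = 0.0134). With library totals the all-gene calls went from 555 higher and 813 lower to 769 and 638 in KO+WT against f/f, and from 555 and 810 to 814 and 689 in KO+N-KR against f/f. The comparisons share the KO and f/f samples, so their values are not independent of each other.

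Ezh2 encodes the main methyltransferase of dividing cells. Its f/f level was 263 CPM at 3i, 243 CPM at day 1 and 238 CPM at day 2, and its KO level 240, 223 and 218 CPM. It was 223, 237 and 210 CPM in KO+WT and 236, 233 and 220 CPM in KO+N-KR. The f/f sample was the highest in each state, but differences were small and no comparison of genotypes passed. The one nearest to the threshold was KO+WT against f/f (log2 difference -0.15 ± 0.05, adjusted p = 0.089).

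Suz12 encodes the scaffold on which the complex assembles. Its levels, by state as above, were 379, 329 and 333 CPM in f/f, 364, 325 and 296 CPM in KO, 456, 348 and 293 CPM in KO+WT, and 402, 351 and 281 CPM in KO+N-KR. KO was below f/f in 3 of 3 states, at day 1 within counting error. By contrast, KO+WT was above f/f at 3i (log2 ratio 0.27) and below it at day 2 (log2 ratio -0.18). No genotype comparison of Suz12 passed, and the largest was KO+WT against KO (0.14 ± 0.08, adjusted p = 0.235).

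Between states the 6 genes did not move as 1 group. At day 1 against 3i, 1 of 6 rose and 2 fell, and at day 2 against 3i, 2 rose and 3 fell. At day 2 against day 1, 2 rose and 3 fell. Calls were common among all genes in these comparisons: 31.9% rose and 34.2% fell at day 1 against 3i, 33.2% and 30.6% at day 2 against 3i, and 29.4% and 26.3% at day 2 against day 1. Read against those shares, calls on 3 to 5 of 6 genes are not a result about the core genes. The feeder markers changed with state as well: 12 of the 14 tested fell at day 1 against 3i and 12 fell at day 2 against 3i, with median log2 fold changes of -1.67 and -2.05. Their part in the core genes' changes was not tested. In bulk samples, fewer cells of a type and less RNA per cell cannot be told apart. With library totals in place of TMM, the median log2 fold change of all genes at day 1 against 3i moved from -0.02 to -0.11.

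Ezh1, which encodes the methyltransferase best known from resting and differentiated cells, took a course of its own. Its level at 3i was 52.4 CPM in f/f, 46.5 in KO, 47.6 in KO+WT and 53.0 in KO+N-KR. At day 1 it was 38.1, 34.4, 36.1 and 31.2 CPM, and at day 2 it was 75.2, 57.3, 64.7 and 54.9 CPM, in the same order. The samples of the 3 states did not overlap: day 1 was the lowest and day 2 the highest in every genotype. Ezh1 fell at day 1 by 0.52 ± 0.07 (log2, adjusted p = 3.99e-05) and rose from day 1 to day 2 by 0.85 ± 0.07 (adjusted p = 1.11e-06). At day 2 it was above 3i by 0.33 ± 0.07 (adjusted p = 0.00138), with a log2 ratio from 0.05 in KO+N-KR to 0.52 in f/f. These 3 calls were kept under every alternative run. At 647 counts or more per sample, the counting error of Ezh1 was at most 3.93% of its level.

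Ezh2, by contrast in level, stayed between 210 and 263 CPM. It fell at day 2 against 3i by 0.12 ± 0.04 (log2, adjusted p = 0.0332), lower in 4 of 4 genotypes, and did not pass at day 1 against 3i (-0.04 ± 0.04, adjusted p = 0.466) or at day 2 against day 1 (-0.08 ± 0.05, adjusted p = 0.146). The day 2 call was lost without the f/f 3i, KO 3i, KO day 2, KO+WT day 2 or KO+N-KR day 2 sample (adjusted p of 0.0535 or more). Per kilobase of mRNA, the ratio of Ezh1 to Ezh2 was 0.133, 0.104 and 0.210 in f/f (states in the order 3i, day 1, day 2). It was 0.129, 0.103 and 0.175 in KO, 0.142, 0.101 and 0.205 in KO+WT, and 0.149, 0.0890 and 0.166 in KO+N-KR. Day 2 had the highest ratio and day 1 the lowest in each genotype. With every ratio between 0.0890 and 0.210, Ezh2 RNA was the more abundant per length in every sample. This difference between the paralogs was not itself tested.

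**Figure D3:**
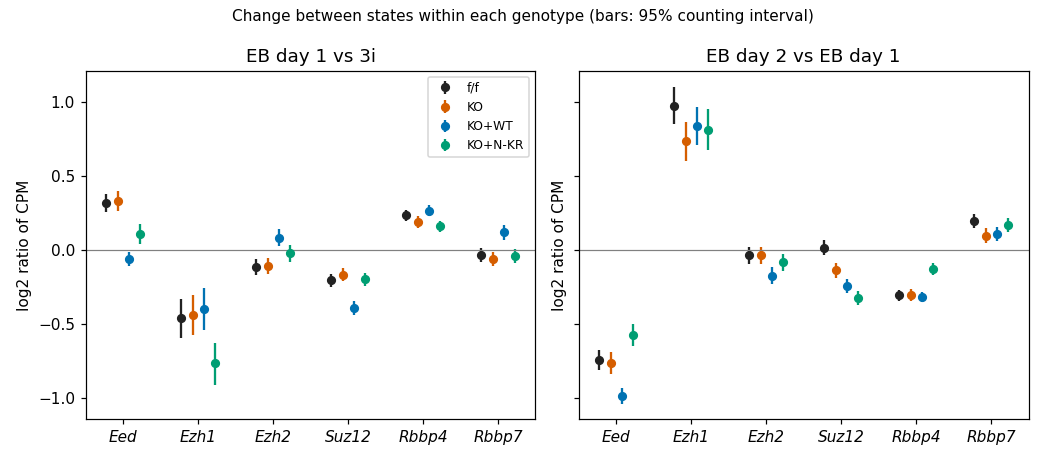
Log2 ratio of CPM between states within each genotype for the 6 genes; bars are 95% intervals that cover counting error only. Ezh1 is below 0 at day 1 and between 0.74 and 0.98 at day 2 against day 1 in all genotypes, where Eed is between -0.98 and -0.57.

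Eed reached its lowest level at day 2 in every genotype. It fell at day 2 against 3i by 0.59 ± 0.09 (log2, adjusted p = 5.04e-05) and against day 1 by 0.76 ± 0.09 (adjusted p = 9.79e-06), lower in 4 of 4 genotypes each time. The fall from 3i was 0.42 in f/f, 0.43 in KO and 0.46 in KO+N-KR on the log2 scale, whereas in KO+WT the log2 ratio was -1.04. That was the single state comparison of a core gene past 2-fold, where 7.54% of genes were at least 2-fold lower. At day 1 against 3i, Eed was higher in f/f, KO and KO+N-KR and lower in KO+WT (log2 ratio -0.06), and the difference over genotypes did not pass (0.17 ± 0.09, adjusted p = 0.0954). It passed without the KO+WT 3i sample (adjusted p = 0.00182) or the KO+WT day 2 sample (0.0270).

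Suz12 was highest at 3i, with no overlap between the 3i samples (364 to 456 CPM) and those of day 1 (325 to 351 CPM) and day 2 (281 to 333 CPM). It fell by 0.24 ± 0.07 (log2, adjusted p = 0.00521) at day 1 and by 0.41 ± 0.07 (adjusted p = 0.000104) at day 2, both against 3i. Falls were common there, in 34.2% of all genes at day 1 and 30.6% at day 2. From day 1 to day 2 it fell by 0.17 ± 0.07 (adjusted p = 0.0415), with f/f the exception (log2 ratio 0.02). That last call was lost with library totals (adjusted p = 0.126) and without the KO day 1, KO+WT day 1, KO+WT day 2, KO+N-KR day 1 or KO+N-KR day 2 sample (0.0654 to 0.177).

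Rbbp4 and Rbbp7 ran in different directions over the states. Rbbp4 peaked at day 1 in every genotype, with a rise from 3i of 0.21 ± 0.04 (log2, adjusted p = 0.000627) and a fall from day 1 to day 2 of 0.26 ± 0.04 (adjusted p = 0.000204). Rbbp7 did not pass at day 1 (log2 difference 0.00, adjusted p = 0.959). It rose at day 2 by 0.14 ± 0.04 both against 3i (adjusted p = 0.0134) and against day 1 (adjusted p = 0.0143), higher in 4 of 4 genotypes. The first of these was lost with library totals (0.0555) and without the KO+WT 3i sample (0.0795), and the second without the f/f, KO or KO+N-KR day 1 sample or the KO+WT day 2 sample (0.0520 to 0.0646). The ratio of Rbbp7 to Rbbp4 per kilobase was 1.35, 1.12 and 1.58 in f/f (states in the order 3i, day 1, day 2). It was 1.38, 1.16 and 1.53 in KO, 1.20, 1.08 and 1.45 in KO+WT, and 1.41, 1.23 and 1.51 in KO+N-KR. The ratio was lowest at day 1 and highest at day 2 in each genotype. Per kilobase of coding length it was 0.685, 0.568 and 0.804 in f/f, and Rbbp4 was the higher in every sample. Which paralog was the more abundant thus depends on the length used.

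**Figure D4:**
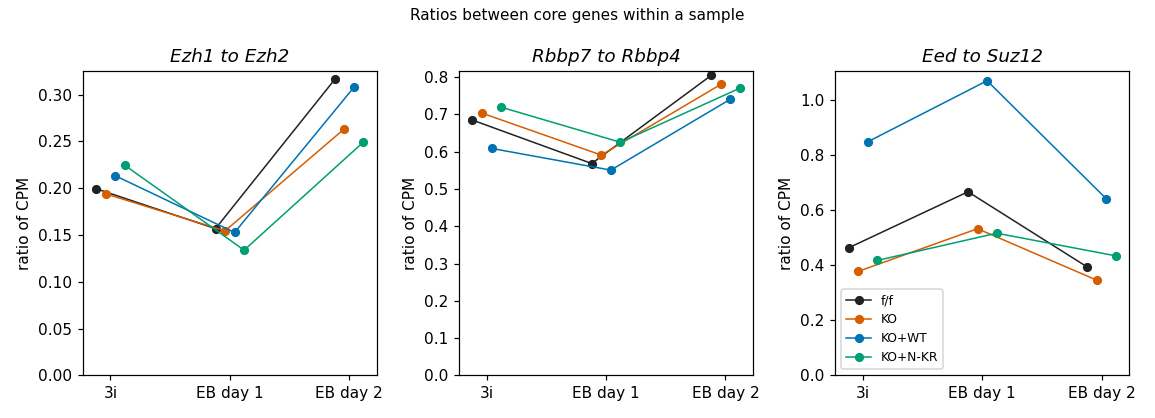
Ratio of CPM (not per length) between pairs of core genes within each sample, by state and genotype. Ezh1 to Ezh2 and Rbbp7 to Rbbp4 are lowest at day 1 and highest at day 2 in every genotype, and Eed to Suz12 is highest in KO+WT in each state, at 0.848, 1.07 and 0.641.

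The ratio of Eed to Suz12 shows how the deleted gene's RNA stood to the scaffold's in the same sample. In CPM it was 0.463, 0.667 and 0.394 in f/f (states in the order 3i, day 1, day 2), and 0.378, 0.533 and 0.346 in KO. It was 0.418, 0.516 and 0.434 in KO+N-KR and 0.848, 1.07 and 0.641 in KO+WT. Day 1 was the highest state in each genotype, and KO was the lowest genotype at 3i and day 2.

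As a description over the 12 samples, which share lines and states, Pearson's r of log2 CPM between core genes ran from -0.51 (Ezh1 and Rbbp4) to 0.67 (Eed and Rbbp4). The catalytic paralogs had r = -0.16, the histone-binding paralogs r = 0.27, and Eed with Suz12 r = 0.57. Among 9587 other genes with at least 5 CPM in every sample, those most like Ezh1 were Eef2, a translation elongation factor (r = 0.98), Nfatc4 (0.98) and Rsbn1l (0.97). Suz12 was most like Mllt6 (0.96), Xrn2 (0.96) and A830080D01Rik (0.95). Rbbp4 was most like Sertad3 (0.97), Cdk7 (0.96) and Ybx1 (0.95), and Rbbp7 like 2210013O21Rik (0.95), Ddt (0.93) and Dnajc19 (0.91). Ezh2 was most like D930014E17Rik, Cobra1 (0.89 each) and Hat1 (0.88), a histone acetyltransferase that works with RBBP7. Eed had the lowest values, with Orc1 (0.87), a subunit of the origin recognition complex, and with Iqcj-schip1 and Schip1 (0.86 each), which overlap each other.

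Some of the accessory subunits direct PRC2 to its targets. Of 8 in the list, 0 were called in KO against f/f, where 4.64% of all genes rose and 4.58% fell. In KO+WT against KO, 1 rose (Mtf2, 0.25 ± 0.06, adjusted p = 0.0123) and 1 fell (Phf19, -0.84 ± 0.23, adjusted p = 0.0243), beside 7.11% and 9.06%. Read against those shares, these counts are not a result about the accessory subunits. At day 1 against 3i, 4 rose and 2 fell, beside 31.9% and 34.2% of all genes, and at day 2 against day 1, 1 rose and 5 fell, beside 29.4% and 26.3%. Jarid2, which helps recruit PRC2, rose at day 1 by 1.38 ± 0.08 (log2, adjusted p = 9.61e-09), from 265 to 790 CPM in f/f, and was at 352 CPM at day 2. Epop rose at day 1 by 1.12 ± 0.10 (adjusted p = 6.54e-07), from 115 to 269 CPM in f/f. The Polycomb-like subunit Mtf2 fell by 0.28 ± 0.05 at day 1 (adjusted p = 0.000337) and by 0.64 ± 0.05 at day 2 against 3i (adjusted p = 2.14e-07), from 367 to 259 CPM in f/f. Its direction from 3i was that of Suz12.

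The 3 genes of the H3K27 demethylase family, which remove or resemble enzymes that remove the PRC2 mark, rose in KO+WT against KO in 3 of 3 cases, beside 7.11% of all genes tested. Kdm6a rose by 0.39 ± 0.07 (log2, adjusted p = 0.00278), Kdm6b by 0.41 ± 0.09 (adjusted p = 0.00831) and Uty, the Y-linked paralog, by 0.69 ± 0.08 (adjusted p = 0.000138). The rise was not particular to KO+WT. In KO+N-KR against KO 2 of 3 rose, beside 6.67% of all genes, and between KO+N-KR and KO+WT 0 of 3 were called. Against f/f, 2 of 3 rose in KO+WT and 1 of 3 in KO+N-KR, beside 3.71% each. In KO against f/f, Uty fell by 0.40 ± 0.08 (adjusted p = 0.0135) and the other 2 did not pass. At day 1 against 3i 3 of 3 rose, beside 31.9% of all genes.

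RBBP4 and RBBP7 work outside PRC2 too, and 27 genes of those complexes were examined. In KO against f/f 0 rose and 3 fell, beside 4.64% and 4.58% of all genes tested, with a median log2 fold change of -0.07. These were Hdac1, a deacetylase (-0.25, adjusted p = 0.0174), Sap30, a SIN3 subunit (-0.31, adjusted p = 0.0248), and Smarca5, a remodelling ATPase (-0.22, adjusted p = 0.0199). In KO+WT against KO 4 rose and 4 fell, beside 7.11% and 9.06% of all genes. Hdac1 rose (0.20, adjusted p = 0.0201) and Smarca5 fell further (-0.21, adjusted p = 0.0125). Of the 27 genes of E2F factors and DNA replication, 3 rose and 2 fell in KO against f/f, beside 4.64% and 4.58%. In KO+WT against KO 1 rose and 7 fell, beside 7.11% and 9.06%. Whether either list differs from all genes in these comparisons was not tested. E2f8, a repressor of the family, rose by 0.45 in KO (adjusted p = 0.00722) and fell by 0.50 in KO+WT against KO (adjusted p = 0.000769). At day 1 against 3i 13 rose and 6 fell, beside 31.9% and 34.2% of all genes, and at day 2 against day 1 4 rose and 14 fell, beside 29.4% and 26.3%. Skp1a, the ubiquitin ligase subunit of the series title, was at 345 to 421 CPM, and no genotype comparison of it passed.

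Genes annotated on the opposite strand overlap exons of 5 of the 6, and whether the counting used strand is not given in the sources used here. Rbbp7 shares 174 bases with Txlng, which had 823 to 1919 counts per sample. Rbbp4 shares 782 bases with Sync, which had 49 to 166 counts. Eed shares 261 bases with E230029C05Rik, which had at most 1 count. How reads from these stretches were assigned cannot be told from the table.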

How the data were processed

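The authors deposited a table of raw read counts, with 23284 gene symbols as rows and 30 columns. Of these, 24 matched a library's label by name and were used, and 6 were left out. STAR 2.5.2b, DESeq2 and the build mm9 are named, per the submitters' processing notes. How reads were counted (tool, strand, annotation) is not given in the sources used here. Library totals ran from 7553683 to 14426034 counts. Groups were taken from sample titles, since the genotype label of the 2 rescue lines says knockout only.

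The 2 libraries of a group were summed. Genotype and state entered as additive terms in a fit to the 12 sums with edgeR 4.0.16 (R 4.3.3; TMM, filterByExpr by genotype, quasi-likelihood F-test, 6 residual degrees of freedom, common coefficient of variation 7.94%). The SE is the absolute log2 fold change divided by the square root of F. Within a state or genotype, ratios (prior count 2) were untested and called from their size, 2-fold or more where the higher sample reached 5 CPM. The fit was also run on simulated data with changed genes in KO against f/f. No rates of recovery or false calls are given here, so that run does not speak for the changes reported. DESeq2 1.42.0, library totals, no filter, left-out samples and the 24 libraries were alternatives. Lengths and overlaps are of GENCODE vM21 models (GRCm38), a build other than the deposited counts'.

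The members and lists were chosen with earlier results of these data known. The rule named the 6 genes, Skp1a, the 3 genes most like each member, and list members past the threshold, of which the longer lists are given as counts with examples.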

Additional observations from a re-analysis of the deposited data

Results flagged for a closer look

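In 8 cases a core gene moved one way in one setting and the opposite way in another, with counting intervals that exclude 0 on both sides. Each setting holds 1 sample per genotype, and none of these differences was tested. Values are differences between the log2 ratios.

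Suz12 had 3 of them. Its ratio of KO+WT to f/f differed by 0.451 between 3i (0.27) and day 2 (-0.18), its ratio of KO+N-KR to f/f by 0.341 between day 1 (0.09) and day 2 (-0.25), and its ratio of KO+N-KR to KO by 0.218 between 3i (0.14) and day 2 (-0.08). In each, the line with EED put back was above the other early and below it at day 2. Ezh1 in KO+N-KR against KO+WT differed by 0.393 between 3i (0.16) and day 2 (-0.24).

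The change from 3i to day 1 had the opposite sign in KO+WT for 3 genes. For Eed it differed by 0.388 between KO (0.33) and KO+WT (-0.06). For Ezh2 it differed by 0.199 between KO+WT (0.09) and f/f (-0.11), and for Rbbp7 by 0.182 between KO+WT (0.12) and KO (-0.06). From the same samples, Ezh2 in KO+WT against KO differed by 0.194 between day 1 (0.09) and 3i (-0.10). The summed feeder markers were highest in the KO+WT 3i sample, at 3737 CPM against 3547 CPM in KO+N-KR, 2871 CPM in KO and 2558 CPM in f/f. Fn1 made up 2979 CPM of the KO+WT sum and 3094 CPM of that of KO+N-KR. The part of these markers in the values above was not tested.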

How the results depend on the processing

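Over settings that leave out a sample, a state, a genotype or a library of each group, 859 of 954 values of single core genes kept direction and side of the threshold, 55 lost a call, 9 gained one and 31 changed sign. Core genes called ranged from 0 to 4 in KO against f/f (3 reported; 0 without the f/f day 1 sample or all day 1 samples, 1 without the KO day 2 sample), from 1 to 3 in KO+WT against KO, from 0 to 2 in KO+N-KR against KO, from 0 to 1 in KO+N-KR against f/f, from 3 to 5 at day 2 against 3i and from 3 to 5 at day 2 against day 1. Sign changes were in values without a call, whose log2 ranges were: Ezh1 -0.12 to 0.076 and Ezh2 -0.0042 to 0.043 in KO+N-KR against KO, Ezh2 -0.079 to 0.019 in KO+WT against KO, Suz12 -0.14 to 0.013 in KO against f/f, -0.14 to 0.013 in KO+N-KR against KO+WT, -0.084 to 0.096 in KO+N-KR against f/f and -0.055 to 0.18 in KO+WT against f/f, and Rbbp7 -0.045 to 0.036 at day 1 against 3i. A setting with fewer samples has fewer residual degrees of freedom. Other settings changed the sign of Ezh1 in KO+N-KR against KO (library totals -0.017, the 2 genotypes alone -0.0028, 24 libraries -0.0045, with replicate block -0.0047), of Rbbp4 in KO+WT against f/f (library totals 0.011), of Suz12 in KO+N-KR against f/f (library totals 0.014) and of Rbbp7 at day 1 against 3i (DESeq2 0.0080). With the 2 genotypes alone, core calls in KO+N-KR against KO went from 2 to 0. With a 1.5-fold threshold, 18 of 180 within-group ratios passed in place of 6.

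With 24 libraries as samples, core calls went from 3 to 6 in KO against f/f, 2 to 5 in KO+WT against KO, 1 to 4 in KO+N-KR against KO+WT, 2 to 4 in KO+N-KR against KO, 1 to 5 in KO+WT against f/f, 0 to 4 in KO+N-KR against f/f and 3 to 5 at day 1 against 3i. These libraries differ by little more than sampling noise, so such p-values compare RNA samples and not genotypes. The replicate block gave 6, 5, 5, 4, 5, 4 and 5 in that order. Same-numbered libraries did not deviate together (r from -0.03 to 0.05 over 66 pairs of groups, with 0 above 0.1), so the numbers were not taken to pair samples. The column names do split by number: in every group, replicate 1 carries one prefix and replicate 2 another. What these prefixes stand for is not given in the sources used here.

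Counts over all genes also moved by over 1.5 times. With 24 libraries they were 7201 in place of 1380 (KO against f/f), 7493 in place of 2422 (KO+WT against KO), 2918 in place of 84 (KO+N-KR against KO+WT), 7543 in place of 2346 (KO+N-KR against KO), 6571 in place of 1368 (KO+WT against f/f) and 6412 in place of 1365 (KO+N-KR against f/f). With the 2 genotypes alone they were 782 in KO against f/f, 200 in KO+N-KR against KO+WT and 904 in KO+N-KR against KO, and DESeq2 called 132 in KO+N-KR against KO+WT. With a sample, state or library left out they ran from 0 (without all day 1 samples) to 1430 in KO against f/f, 225 to 2852 in KO+WT against KO, 30 to 111 in KO+N-KR against KO+WT, 328 to 2934 in KO+N-KR against KO, 175 to 1653 in KO+WT against f/f and 174 to 1665 in KO+N-KR against f/f.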
